A study of Mus musculus with 21 samples.

Results

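Prostates of surgically castrated males were compared with prostates of males with testes, all of them given only the injection vehicle, on 6 of the 21 bead arrays of the study: 3 arrays of castrated vehicle-treated males and 3 of intact vehicle-treated males from its genistein experiment. The features described were the 22332 of 45259 probes detected above background (detection p-value under 0.05) on at least 3 of the 12 arrays of that experiment; they stand for 15406 of the 29444 genes or unnamed transcripts on the array, 12078 of them with a gene symbol. Both groups were FVB/N males, 8 to 12 weeks old and heterozygous for a luciferase reporter whose thymidine kinase promoter is joined to androgen response elements (Slp-HRE2). Both were injected under the skin with 0.1 ml of mineral oil with 2% dimethylsulfoxide for 5 days, and the prostates were collected 24 hours after the last injection. In the castrated group the injections began 4 days after surgery. Neither the lobes taken nor the number of animals behind an array is stated in the labels; p-values therefore speak of the variation among arrays, part of which may be technical. The 3 castrated arrays shared chip 1 and the 3 intact arrays shared chip 2, so that castration and chip cannot be told apart in any value below. The comparison asks which prostate transcripts change when testicular androgen is withdrawn, and the account turns to metabolism, transporters, transcription factors and abundant transcripts.

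As background, testosterone from the testis is converted in the prostate to dihydrotestosterone, and this androgen signal keeps the luminal cells alive and secreting. The mouse gland secretes large amounts of protein, zinc and small molecules into the seminal fluid, and such proteins enter the endoplasmic reticulum, are folded and glycosylated there and leave in coated vesicles. Castration shrinks the gland and leaves proportionally more stroma and basal cells. In a bulk sample, fewer cells of a type and less RNA per cell cannot be told apart.

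The arrays had like median intensities, between 99.4 and 104.1. Detection differed by group and chip: a castrated array detected 45.55% to 45.62% of its probes and an intact array 42.67% to 43.35%. A castrated array correlated with the others of its group at 0.9904 to 0.9906 and an intact array at 0.982 to 0.987. Correlations with the arrays of the other group were 0.953 to 0.967. Intact array 1 had the lowest of both correlations. Levels are normalized log2 signals and changes are castrated minus intact on that log2 scale, with the standard error (SE) and the adjusted p-value of a limma model over all 15406 genes; a gene is called at an adjusted p-value under 0.05. Of all genes 3259 were called (21.2%), 1713 higher (11.1%) and 1546 lower (10.0%) after castration, and the median change of all genes was 0.04. Changes of 1 log2 unit or more were found for 420 genes called higher and 481 called lower, and of 2 log2 units or more for 44 and 139. The groups of 3 arrays did not overlap for 39.5% of all genes. The split depended on the scaling. With the arrays scaled by their medians, 2283 genes were called higher and 1053 lower, and with scaling by the 75th percentile 1246 and 2070; the median change of all genes moved by 0.10 and -0.11. The small shifts of whole lists below are therefore given beside the median of all genes. The plot of signal against change shows calls in both directions over most of the range of signal.

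**Figure D1:**
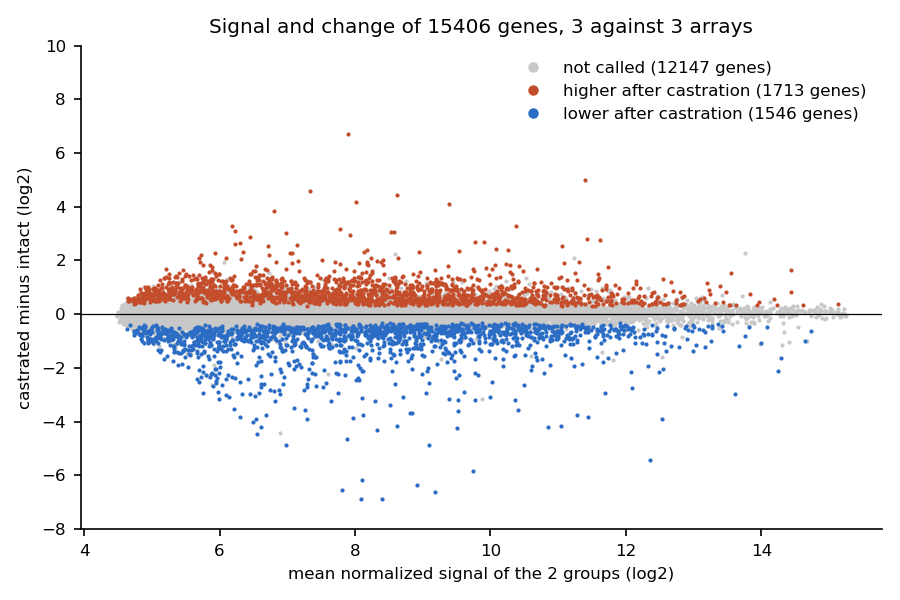
Change after castration (castrated minus intact, log2) against the mean normalized signal of both groups (log2) for the 15406 genes; each point is a gene, red for the 1713 called higher, blue for the 1546 called lower and grey for those not called. Large falls outnumber large rises, with 139 genes called lower and 44 called higher by 2 log2 units or more.

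A sequence shared by several folding genes next to their start sites is shown first, since the falls of those genes are described next. The endoplasmic reticulum (ER) stress response element, CCAAT and CCACG with any 9 bases between them, on either strand, is known as a site through which ATF6 and NF-Y raise folding genes when unfolded protein builds up in the ER. The 250 bases upstream of every start site in RefSeq's promoter windows (GRCm38.p6) were searched for it. It was found in 37 of 32851 windows (0.113%), and in 14 of the 9671 tested genes that have a window (0.145%). Of the genes called lower, 9 of 1042 carried it (0.864%). Of those 9, 8 were among the 17 folding genes called lower that have a window (47.1%). Since the element is known from folding genes, its share among them does not bear on castration. Only 2 tested folding genes were not called, too few for a comparison. The capitals mark the element in each sequence, 5′ to 3′ on the strand of the gene.
Hspa5, chr2:34772010-34772058, + strand: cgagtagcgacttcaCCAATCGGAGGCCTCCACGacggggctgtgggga
Hsp90b1, chr10:86705623-86705671, - strand: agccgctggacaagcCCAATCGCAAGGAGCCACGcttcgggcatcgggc
Calr, chr8:84847060-84847108, - strand: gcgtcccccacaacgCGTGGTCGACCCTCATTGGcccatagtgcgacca
Pdia6, chr12:17266476-17266524, + strand: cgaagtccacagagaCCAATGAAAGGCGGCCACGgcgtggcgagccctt
Derl3, chr10:75893227-75893275, + strand: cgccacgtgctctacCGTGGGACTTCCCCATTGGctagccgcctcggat
Creld2, chr15:88819505-88819553, + strand: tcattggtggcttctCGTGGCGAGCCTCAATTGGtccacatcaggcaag
Dnajc3, chr14:118937812-118937860, + strand: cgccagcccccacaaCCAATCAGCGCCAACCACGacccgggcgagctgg
Syvn1, chr19:6046517-6046565, + strand: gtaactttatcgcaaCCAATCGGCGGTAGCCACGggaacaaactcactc
The ninth gene called lower, Alg12, a mannosyltransferase that builds the sugar tree of glycoproteins, lies on the other strand of the same interval as Creld2, so both share 1 copy. Hsp90b1 holds 2 matches, of which the one farther from the start is printed. The element starts between 44 and 212 bases before the start site in these 8 genes. A single gene called higher, Adcy3, had it, and of the tested genes not called, Acacb, Ero1b, Hnrnpa3 and Pan2 had it. It was in 0 of 16 promoters of the translocon genes called lower and in 0 of 19 of the coat and Golgi genes called lower.

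Genes of protein folding in the ER were lower after castration as a group, with 18 of 20 tested called lower and none called higher, and a median change of -1.21. Derl3, which feeds misfolded proteins to degradation, read 6.53, 6.53 and 6.58 on the castrated arrays and 9.54, 9.70 and 9.78 on the intact arrays, a fall to a level 8.73-fold lower (-3.13, SE 0.21, adjusted p = 4.06e-06). Creld2, an ER chaperone with disulfide isomerase activity, read 10.06, 10.40 and 10.21 against 13.22, 13.05 and 13.19 (-2.93, SE 0.22, adjusted p = 6.8e-06). Pdia6, a disulfide isomerase, read 7.50, 8.04 and 7.94 against 10.05, 9.60 and 9.95 (-2.04, SE 0.20, adjusted p = 4.83e-05). In all 3 genes every castrated array lay more than 1 log2 unit below every intact array. Hsp90b1, the ER form of the Hsp90 chaperone, was bright in both groups, at 11.95, 11.90 and 11.85 after castration and 13.43, 13.24 and 13.19 in intact males (-1.39, SE 0.11, adjusted p = 1.3e-05). Hspa5, the ER chaperone BiP, was read by a dim probe, at 5.43, 5.67 and 5.16 against 7.35, 6.48 and 6.49 (-1.35, SE 0.23, adjusted p = 0.00197). Dnajc3, a BiP cochaperone, changed by -1.55 (adjusted p = 0.00105) and Syvn1, a ubiquitin ligase of the ER membrane, by -1.08 (adjusted p = 0.00929). Calr, the glycoprotein chaperone calreticulin, changed by -0.94 (adjusted p = 0.015) and missed the threshold without intact array 1 (-0.86). Alg12 changed by -0.66 (adjusted p = 0.0164), and by -0.64 without castrated array 1 and -0.57 without intact array 1, both past the threshold no longer.

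Transcripts of the regulators of this response did not move together. Xbp1, the transcription factor spliced in ER stress, read 12.81, 13.04 and 12.86 after castration and 13.07, 12.57 and 12.64 in intact males (0.14, adjusted p = 0.592), and the array reads its total transcript, not its spliced form. Atf4, which drives amino acid and stress genes, changed by -0.30 (adjusted p = 0.153), was called lower with 75th percentile scaling (-0.53), and had the opposite sign, not called, against the estradiol-experiment intact arrays (0.35). Eif2ak3, the ER stress kinase PERK, read 4.96, 4.89 and 4.89 against 5.94, 5.82 and 5.98 (adjusted p = 0.00382). Its castrated values lay at or near the lowest detected signals of those arrays, 4.88 to 4.89, so the size of its fall is poorly defined. Bhlha15, a transcription factor of secretory cells known as Mist1, read 10.79, 10.98 and 10.75 against 11.89, 11.46 and 11.61 (-0.81, SE 0.19, adjusted p = 0.0115). The groups overlapped for Xbp1 and not for Atf4, Eif2ak3 and Bhlha15, of which Atf4 was not called.

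The steps before and after folding were lower by a smaller amount. Of 30 tested genes for signal peptide recognition, the translocon and the oligosaccharyltransferase, 23 were called lower and all 30 had a change below 0, from -1.15 to -0.22 with a median of -0.57. The signal recognition particle receptor Srpr read 8.22, 8.25 and 7.90 after castration and 9.21, 9.15 and 9.10 in intact males (-1.03, SE 0.12, adjusted p = 0.00023), and the particle's subunit Srp72 changed by -0.96 (adjusted p = 0.00516). Spcs3, a signal peptidase subunit, changed by -1.13 (adjusted p = 0.00709). Of 38 coat and Golgi vesicle genes 22 were called lower, with a median of -0.61. Kdelr3, a receptor that returns chaperones from the Golgi to the ER, read 8.22, 8.17 and 7.80 against 10.47, 9.82 and 9.94 (-2.01, SE 0.22, adjusted p = 9.73e-05). Copz2, a subunit of the COPI coat, read 11.86, 11.94 and 11.99 against 13.24, 12.69 and 13.02 (-1.05, SE 0.16, adjusted p = 0.000937), and Sec24d, a cargo adaptor of the COPII coat, changed by -1.23 (adjusted p = 0.00538). Leaving out 1 array gave 16 to 18 folding, 17 to 23 translocon and 16 to 21 coat genes called lower.

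The general machinery of protein synthesis and respiration had few calls. Of 64 tested subunits of oxidative phosphorylation 0 were called by limma, with a median of 0.05. Of 55 cytosolic ribosomal proteins 4 were called higher and 1 lower, and of 26 ribosome biogenesis genes 1 was called higher. Of 73 mitochondrial ribosomal proteins 8 were called lower, led by Mrps6 at -0.90 (adjusted p = 0.000451), and their median was 0.02. These shares lie near or under those of all genes. With 75th percentile scaling 4 oxidative phosphorylation subunits and 12 mitochondrial ribosomal proteins were called lower and the median of the cytosolic ribosomal proteins turned from 0.14 to -0.07.

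**Figure D2:**
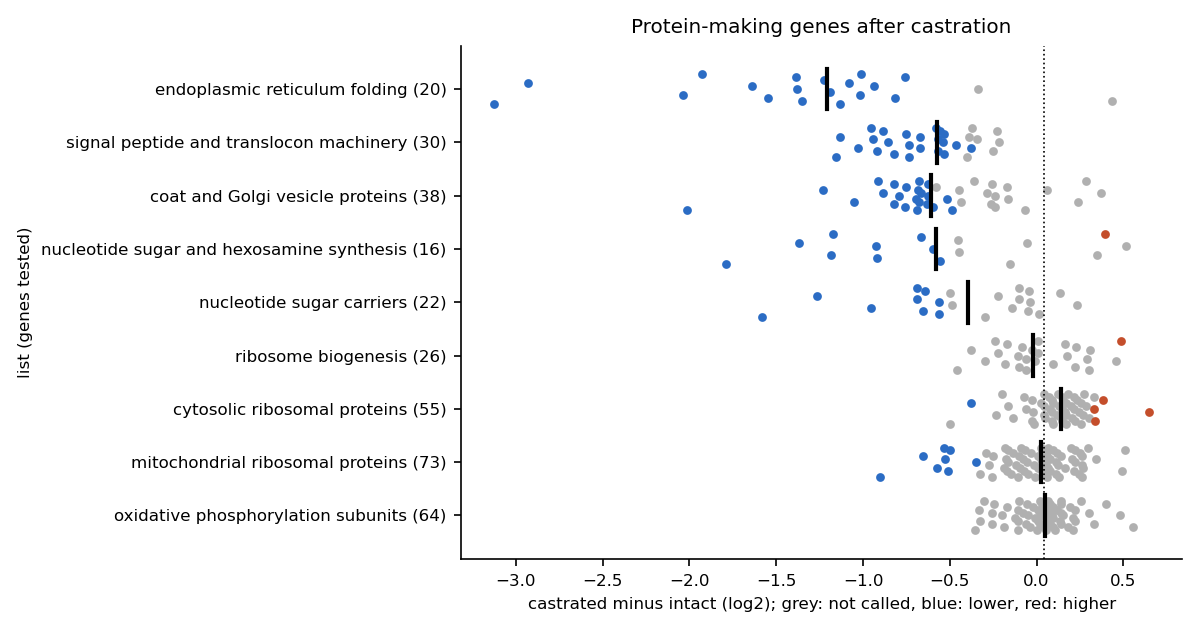
Change after castration (castrated minus intact, log2) of every tested gene of 9 lists; each point is a gene, blue where called lower, red where called higher and grey where not called, the bar is the median of the list and the dotted line the median of all genes. The folding, translocon and coat lists lie left of the dotted line, with medians of -1.21, -0.57 and -0.61, and the respiratory and ribosomal lists lie around it.

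Genes that supply sugar donors for glycosylation were called lower more often than higher. Of 16 tested genes that make nucleotide sugars and hexosamines, 9 were called lower and 1 higher (median -0.58). Gmppb, which makes GDP-mannose, read 7.002, 7.134 and 6.502 after castration and 8.911, 8.409 and 8.677 in intact males (-1.79, SE 0.25, adjusted p = 0.000527). Nans, the sialic acid synthase, read 9.18, 9.47 and 9.26 against 10.63, 10.63 and 10.74 (-1.37, SE 0.16, adjusted p = 0.000176). Mpi, which makes mannose 6-phosphate, read 9.66, 9.87 and 9.65 against 11.09, 10.77 and 10.88 (-1.18, SE 0.15, adjusted p = 0.000263). Gmds, the first enzyme of GDP-fucose synthesis, changed by -1.17 (adjusted p = 0.00181). In these genes the groups were apart on every array. Of 22 nucleotide sugar carriers of the Slc35 family 9 were called lower and 0 higher (median -0.39). Slc35a3, the Golgi carrier of UDP-N-acetylglucosamine, read 7.60, 7.74 and 7.84 against 9.26, 8.70 and 9.03 (-1.27, SE 0.17, adjusted p = 0.000464), while the least changed of its 4 probes gave -0.25.

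The intact vehicle-treated arrays of the estradiol experiment, from other chips, another vehicle (0.5% ethanol) and 4 days of injection, gave smaller falls for part of these genes. Against them 11 translocon genes were called lower and 1 higher, and 16 coat genes lower and 3 higher. Of all 15406 genes 2650 were called lower and 3720 higher there, beside 1546 and 1713 in the main comparison. There Creld2 changed by -1.40 and Derl3 by -2.43, Pdia6 by -1.25, Hspa5 by -0.66, Calr by -1.69, Srp72 by -0.53, Mpi by -0.78, Kdelr3 by -0.75, Copz2 by -0.59 and Nans by -0.65. Dnajc3 (-0.36), Syvn1 (-0.50), Spcs3 (-0.59) and Gmds (-0.13) were not called, and Alg12 (0.34) and Sec24d (0.03) had the opposite sign. Srpr (-0.97) changed by about as much as above.

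Of 13 tested genes of serine, glycine and one-carbon metabolism 6 were called lower and 0 higher, with a median of -0.60. Mthfd2, the mitochondrial enzyme that oxidizes methylene-tetrahydrofolate, read 8.10, 7.90 and 7.76 after castration and 11.31, 10.95 and 11.09 in intact males, 9.16-fold lower (-3.20, SE 0.16, adjusted p = 3.94e-07). Gnmt, which uses up S-adenosylmethionine by methylating glycine, read 6.80, 7.64 and 7.08 against 10.45, 9.91 and 10.35 (-3.07, SE 0.27, adjusted p = 2.24e-05), and the least changed of its 3 probes gave -0.75. Phgdh, the first enzyme of serine synthesis, read 8.11, 8.13 and 7.95 against 9.70, 9.24 and 9.47 (-1.40, SE 0.16, adjusted p = 0.000122). In each of these genes the highest castrated array lay more than 1 log2 unit under the lowest intact array. Aldh1l2, the mitochondrial formyl-tetrahydrofolate dehydrogenase, changed by -1.74 (adjusted p = 0.00136). Of 9 genes of the methionine cycle and transsulfuration 4 were called lower, with a list median of -0.04. Cbs, which joins serine to homocysteine, read 5.54, 5.90 and 6.11 against 8.90, 8.43 and 8.65 (-2.81, SE 0.20, adjusted p = 5.12e-06).

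Arginine and proline enzymes and tRNA charging followed. Of 13 genes of asparagine, glutamine, proline and arginine metabolism 5 were called lower (median -0.51). Arg2, the mitochondrial arginase, read 7.65, 8.03 and 8.07 after castration and 10.02, 9.04 and 9.91 in intact males (-1.74, SE 0.23, adjusted p = 0.000421), and Aldh18a1, the first enzyme of proline synthesis, changed by -1.09 (adjusted p = 0.00169). Asns, the asparagine synthetase, changed by -0.81 (adjusted p = 0.0225) and was no longer called without castrated array 1 (-0.78), castrated array 3 (-0.73), intact array 1 (-0.65) or intact array 3 (-0.81), nor against the estradiol-experiment intact arrays (-0.27). Of 18 cytosolic aminoacyl-tRNA synthetases 4 were called lower and 17 had a change below 0 (median -0.25). Wars, which charges tryptophan tRNA, read 10.58, 10.91 and 10.85 against 12.54, 12.21 and 12.33 (-1.58, SE 0.18, adjusted p = 0.000167), more than 2 times the size of the next, Aars for alanine (-0.59, adjusted p = 0.00413) and Gars for glycine (-0.52, adjusted p = 0.0136; the mean of its probes, -0.46, was not called). Against the estradiol-experiment intact arrays Gars (-0.34) was not called and Aldh18a1 changed by -1.65.

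Of 29 tested amino acid carriers 8 were called lower and 3 higher, with a median of -0.02. Slc38a5, a carrier of glutamine, serine and glycine, read 4.60, 5.40 and 5.10 after castration and 7.54, 7.54 and 7.61 in intact males (-2.53, SE 0.20, adjusted p = 8.94e-06), and was detected on 2 of the 3 castrated arrays. Slc7a4 of the cationic carrier family read 9.63, 9.70 and 9.60 against 11.85, 11.31 and 11.57 (-1.93, SE 0.16, adjusted p = 1.73e-05). Slc7a11, the cystine carrier, read 4.85, 5.49 and 4.59 against 6.87, 6.15 and 6.37 (-1.49, SE 0.27, adjusted p = 0.00282), while its other probe gave -0.28; it too was detected on 2 of the 3 castrated arrays. The 3 carriers called higher were each under 1 log2 unit and 0 of them were called without castrated array 1 or without intact array 1.

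The amino acid response element TGATGNAA, through which ATF4 is known to raise such genes, was searched for in the same 250 upstream bases on both strands. It was found in 4 of the 20 genes of the amino acid lists that were called lower and have a window (20%). Of all tested genes 254 of 9671 had it (2.63%), as did 26 of 1042 called lower (2.5%) and 1134 of 32851 windows (3.45%). Members of the same lists that were not called were not counted, so the 20% does not bear on castration. The capitals mark the element on the strand of the gene in 3 of the 4; Slc7a11 holds 2 matches.
Asns, chr6:7693210-7693247, - strand: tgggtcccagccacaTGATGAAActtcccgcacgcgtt
Slc7a11, chr3:50443657-50443694, - strand: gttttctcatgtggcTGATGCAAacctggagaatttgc
Gars, chr6:55037956-55037993, + strand: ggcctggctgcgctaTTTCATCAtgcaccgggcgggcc
The full androgen response element, AGAACA and TGTTCT with any 3 bases between them, was in 0 of the 1042 promoters of genes called lower, 0 of the 1052 called higher and 3 of all 32851 windows. Its one side, TGTTCT, which is part of the full element, was in 13.3% of the promoters of genes called lower, 13.8% of those called higher, 13.6% of those tested and 16.1% of all windows. These counts say only which letters stand in these windows.

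Central energy metabolism had few calls. Of 15 glycolysis genes 2 were called higher, Aldoc, the brain form of aldolase (1.07, adjusted p = 0.00249), and Pkm, pyruvate kinase (0.81, adjusted p = 0.0289). Pkm read 12.75, 12.67 and 13.02 after castration and 11.51, 12.28 and 12.22 in intact males, and it was not called without castrated array 1 (0.84), castrated array 3 (0.71) or intact array 1 (0.56), nor with 75th percentile scaling (0.55). Of 19 genes of the tricarboxylic acid cycle and its entry 1 was called higher, Pdha1, a subunit of pyruvate dehydrogenase (0.62, adjusted p = 0.0149), which was not called without castrated array 3 (0.55) or intact array 1 (0.50). Of 7 genes of the pentose phosphate pathway and NADPH supply 1 was called higher, Idh1, the cytosolic isocitrate dehydrogenase, at 11.74, 11.56 and 11.76 against 10.63, 10.84 and 10.72 (0.96, SE 0.23, adjusted p = 0.0122). Of 22 genes of fatty acid oxidation and ketone bodies 1 was called lower, Bdh1, the hydroxybutyrate dehydrogenase, at 7.15, 7.21 and 6.90 against 8.48, 8.40 and 8.45 (-1.36, SE 0.24, adjusted p = 0.00243). Of 13 genes of gluconeogenesis and glycogen and of 9 of creatine metabolism 0 were called by limma. These shares are under or near the 21.2% of all genes. Against the estradiol-experiment intact arrays Pkm (0.22), Pdha1 (0.17) and Idh1 (0.54) were not called, and Aldoc changed by 0.64 and Bdh1 by -0.85.

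**Figure D3:**
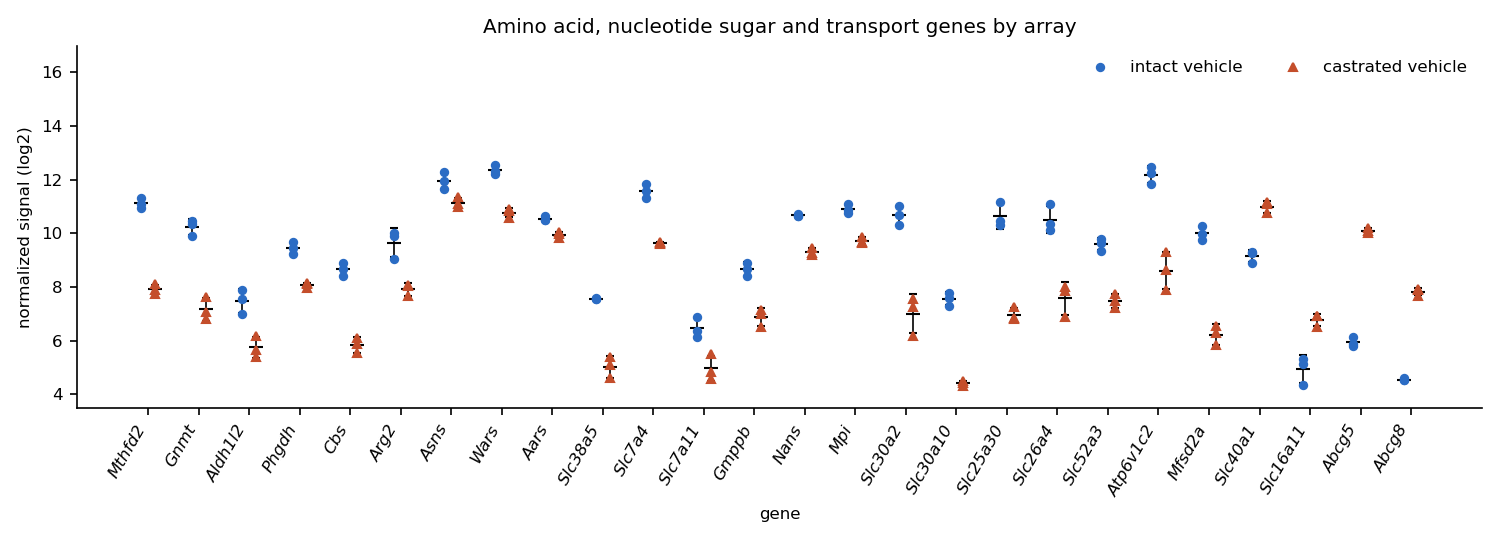
Normalized signal (log2) of 26 genes of amino acid and nucleotide sugar metabolism and transport on each array; blue circles are the 3 intact vehicle arrays, red triangles the 3 castrated vehicle arrays, and bars show the mean ± SD of each group. The groups are apart for each gene shown, with Slc40a1, Slc16a11, Abcg5 and Abcg8 at the right higher after castration and the others lower.

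Solute carriers were called lower more often than higher. Of 239 tested members of all Slc families 47 were called lower and 23 higher, and 36 to 48 and 14 to 20 when 1 array was left out. Together 29.3% were called, beside 21.2% of all genes, of which 10.0% were lower and 11.1% higher. The Slc median was -0.09 beside 0.04 for all genes, and scaling alone moved the median of all genes by 0.10 or -0.11. Slc25a30, a mitochondrial carrier known as KMCP1, read 6.82, 7.24 and 6.85 after castration and 11.18, 10.30 and 10.46 in intact males, 12.8-fold lower (-3.68, SE 0.28, adjusted p = 6.8e-06). Slc26a4, the anion exchanger pendrin, read 6.88, 8.00 and 7.85 against 11.08, 10.11 and 10.35 (-2.94, SE 0.38, adjusted p = 0.000348). Slc52a3, a riboflavin carrier, read 7.75, 7.50 and 7.22 against 9.66, 9.34 and 9.78 (-2.10, SE 0.16, adjusted p = 8.52e-06). The groups were apart by more than 1 log2 unit in each. The choline carrier family member Slc44a4 changed by -1.51 (adjusted p = 0.000422), the intestinal sodium-glucose carrier Slc5a1 by -1.30 (adjusted p = 9.08e-05), and the vesicular nucleotide carrier Slc17a9 by -1.61 (adjusted p = 0.000367). Slc44a4 changed by -0.90 against the estradiol-experiment intact arrays. Mfsd2a, a carrier of lysophospholipids that bear omega-3 fatty acids, read 5.83, 6.57 and 6.30 against 10.27, 9.97 and 9.77, 13.7-fold lower (-3.77, SE 0.33, adjusted p = 2.02e-05).

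The prostate is known for its high zinc content. Of 19 tested zinc carriers 6 were called lower and 1 higher. Slc30a2, which moves zinc into vesicles, read 6.19, 7.56 and 7.27 after castration and 11.02, 10.32 and 10.69 in intact males, 12.7-fold lower (-3.67, SE 0.31, adjusted p = 1.75e-05). Slc30a10, which exports manganese and was first named as a zinc carrier, was detected on none of the castrated arrays and was at least 6.42-fold lower there; such a bound sets the mean of the group that was measured against the lowest detected signal on the arrays of the group that was not (adjusted p = 4.02e-07). It read 4.32, 4.50 and 4.43 against 7.79, 7.31 and 7.61. Slc39a11, a zinc importer, changed by -1.38 (adjusted p = 0.000441). The member called higher, the intestinal importer Slc39a4 (1.33, adjusted p = 0.0238), was not called without castrated array 2 (1.22), castrated array 3 (1.30) or intact array 1 (1.22), and read 7.85, 9.53 and 8.03 on the castrated genistein arrays.

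Carriers that rose included that of iron out of the cell. Slc40a1, the iron exporter ferroportin, which is abundant in macrophages, read 11.08, 10.74 and 11.15 after castration and 8.89, 9.30 and 9.27 in intact males (1.84, SE 0.18, adjusted p = 4.32e-05). Slc16a11 of the monocarboxylate carrier family read 6.90, 6.53 and 6.91 against 4.35, 5.31 and 5.15 (1.85, SE 0.25, adjusted p = 0.000464), and was detected on 2 of the 3 intact arrays. Slc27a1, a fatty acid carrier, changed by 1.33 (adjusted p = 0.00528), and by 0.84 against the estradiol-experiment intact arrays. The macrophage marker list moved with Slc40a1, with 9 of 10 tested markers called higher, and its part in the result was not tested.

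Pumps and channels moved in both directions. Of 18 subunits of the vacuolar proton pump 6 were called lower and 0 higher (median -0.27). Atp6v1c2, a tissue-restricted subunit, read 7.91, 9.30 and 8.64 after castration and 12.47, 11.84 and 12.25 in intact males, 11.9-fold lower (-3.57, SE 0.30, adjusted p = 1.6e-05). Kcnk1, a potassium leak channel, read 10.02, 10.38 and 10.41 against 12.46, 12.00 and 12.16 (-1.93, SE 0.16, adjusted p = 1.78e-05). Scnn1a, the alpha subunit of the epithelial sodium channel, read 6.49, 6.78 and 6.58 against 7.64, 8.56 and 8.45 (-1.60, SE 0.31, adjusted p = 0.00398). Of 41 potassium channel genes 7 were called lower and 5 higher. Kcnj15, an inward rectifier, was higher by 1.54 (adjusted p = 0.00313), and by 0.69 against the estradiol-experiment intact arrays, where Scnn1a changed by -2.43; Kcnj15 was detected on 2 of the 3 intact arrays and read 5.30, 6.28 and 5.19 on the castrated genistein arrays. Of 31 ABC transporters 8 were called higher and 5 lower. Abca5, a transporter linked to lysosomes, read 5.88, 5.27 and 5.79 against 8.72, 7.94 and 8.06 (-2.59, SE 0.23, adjusted p = 2.22e-05).

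The largest rises among transporters were those of a pair of sterol exporters. Abcg5 and Abcg8, which together export cholesterol and plant sterols from intestine and liver, both rose. Abcg5 read 10.11, 10.20 and 10.00 after castration and 5.80, 5.89 and 6.12 in intact males, 18.0-fold higher (4.17, SE 0.74, adjusted p = 0.00239). Abcg8 read 7.94, 7.87 and 7.68 against 4.52, 4.60 and 4.52, was detected on none of the intact arrays and was at least 7.03-fold higher (adjusted p = 0.00105). Best1, a calcium-gated anion channel, read 9.11, 9.65 and 9.35 against 6.28, 6.30 and 6.04 (3.16, SE 0.51, adjusted p = 0.00138). All 3 genes were low on 2 of the 3 arrays of castrated males given genistein. Abcg5 read 6.10, 9.29 and 5.14 there, Abcg8 4.48, 6.98 and 4.37, and Best1 6.31, 9.01 and 6.69. Among the 44 genes called higher by 2 log2 units or more, 23 lay at least 1 log2 unit under the lowest castrated vehicle array on castrated genistein arrays 1 and 3, and 0 did so on array 2.

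Among enzymes of small-molecule metabolism, those of retinoid metabolism were tested first. Of 17 genes 5 were called lower and 2 higher. Crabp1, which binds retinoic acid in the cytosol, read 4.90, 4.61 and 4.63 after castration and 7.84, 7.04 and 7.23 in intact males (-2.65, SE 0.30, adjusted p = 0.000132); it was detected on 1 of the 3 castrated arrays, so that the size of the fall is poorly defined. Aldh1a1, which makes retinoic acid, read 8.50, 8.61 and 8.68 against 10.46, 10.13 and 10.42 (-1.74, SE 0.16, adjusted p = 3.5e-05), and its close relative Aldh1a7 changed by -1.63 (adjusted p = 3.19e-05). Another retinaldehyde dehydrogenase, Aldh1a3, went the other way, at 7.30, 7.35 and 7.12 against 5.88, 5.98 and 6.25 (1.22, SE 0.20, adjusted p = 0.00157), and was not called against the estradiol-experiment intact arrays (0.47), where Aldh1a1 changed by -0.89. Near-identical family members can share probe sequence, so that the split between Aldh1a1 and Aldh1a7 is uncertain.

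Cytochromes P450 and carboxylesterases differed by member. Of 36 P450 genes 7 were called higher and 5 lower. Cyp2b10, a drug-metabolizing enzyme of the liver, read 7.36, 7.89 and 8.16 after castration and 11.16, 10.75 and 11.01 in intact males (-3.17, SE 0.29, adjusted p = 2.66e-05), and its relative Cyp2b23 5.28, 5.20 and 5.62 against 9.16, 8.58 and 8.79 (-3.48, SE 0.21, adjusted p = 1.7e-06). The other probe of Cyp2b10 gave -0.81, and against the estradiol-experiment intact arrays Cyp2b23 changed by -2.26. Cyp2d22 rose, at 10.86, 11.06 and 11.28 against 9.32, 9.71 and 9.69 (1.495, SE 0.19, adjusted p = 0.000293), with 0.35 at its other probe. Of 5 carboxylesterases 4 were called higher. Ces1d was among the brightest transcripts of the castrated gland, at 14.33, 14.29 and 14.34 against 12.77, 13.14 and 12.48 (1.52, SE 0.18, adjusted p = 0.000186). Ces1e read 8.63, 8.75 and 8.78 against 4.40, 4.65 and 5.60 (3.84, SE 0.49, adjusted p = 0.000346), was detected on 1 of the 3 intact arrays, so that the size of the rise is poorly defined, and read 5.77, 8.17 and 6.20 on the castrated genistein arrays. Leaving out 1 array gave 2 to 3 carboxylesterases called higher. Ch25h, the cholesterol 25-hydroxylase, rose by 3.02 (adjusted p = 0.000348), Car2, carbonic anhydrase of red and epithelial cells, by 2.70 (adjusted p = 2.6e-06) and Alox5ap, a protein of leukotriene synthesis, by 2.40 (adjusted p = 0.000792). On the castrated genistein arrays Ch25h read 6.29, 8.11 and 6.39 and Alox5ap 9.28, 10.95 and 9.42, low on arrays 1 and 3.

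**Figure D4:**
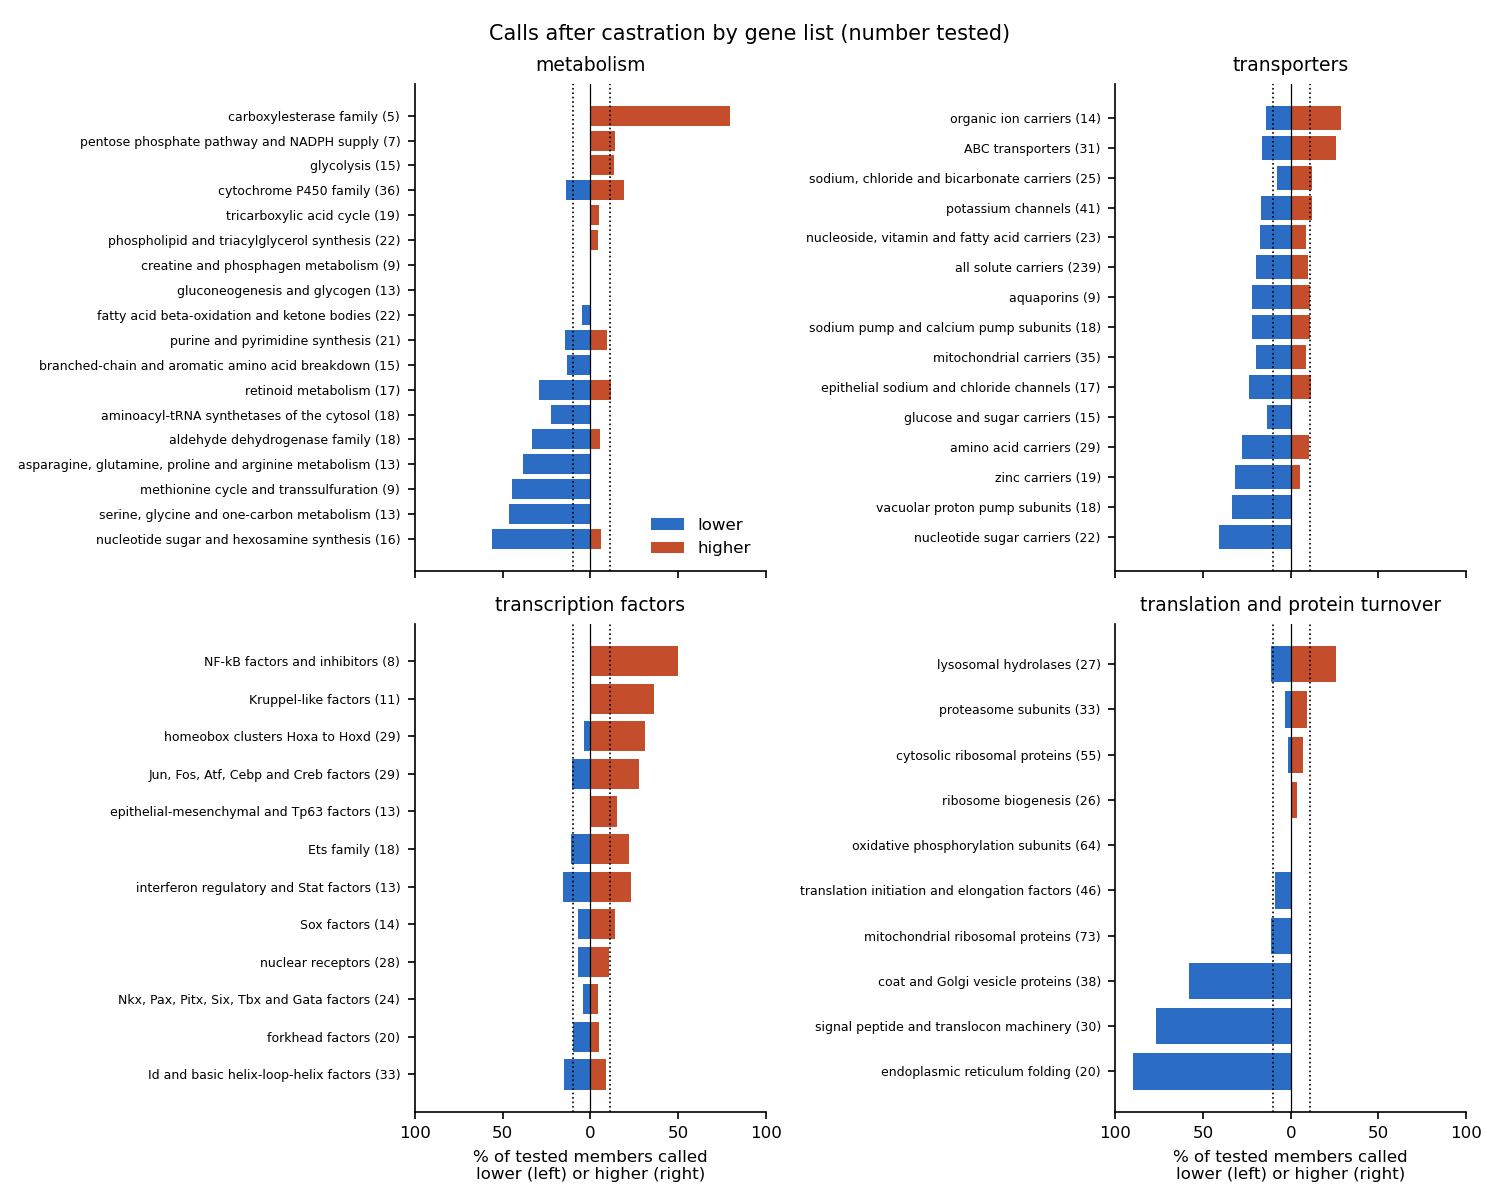
Share of the tested members of each list called lower (blue, left) or higher (red, right) after castration, in % of tested members, with the number tested in brackets; dotted lines mark the shares of all genes, 10.0% lower and 11.1% higher. The folding, translocon, coat, nucleotide sugar and one-carbon lists reach far left of the dotted line, the carboxylesterase, NF-kB, Kruppel-like and Hox lists reach right of it.

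Transcription factor families had calls in both directions: 1 higher and 2 lower of 20 forkhead factors, 4 and 2 of 18 Ets factors, 3 and 2 of 13 interferon regulatory and Stat factors, and 1 and 1 of 24 tested factors of the Nkx, Pax, Tbx, Gata and related families. The shares called were under the 21.2% of all genes for the forkhead and the Nkx, Pax, Tbx, Gata and related lists. They were above it for the Ets and the interferon regulatory and Stat lists, and these differences were not tested. Foxa1, a pioneer factor that opens chromatin for other transcription factors, read 10.67, 10.92 and 10.70 after castration and 11.99, 11.65 and 11.74 in intact males (-1.03, SE 0.19, adjusted p = 0.00275). Spdef, an Ets factor of secretory epithelium, read 7.10, 7.48 and 7.32 against 8.50, 8.05 and 8.17 (-0.94, SE 0.18, adjusted p = 0.00367). Stat5a, a signal transducer of prolactin, read 8.99, 9.44 and 9.09 against 10.72, 10.36 and 10.55 (-1.37, SE 0.15, adjusted p = 0.000137). All 3 genes had groups that were apart. Nkx2-6, a homeobox factor known from heart and pharynx development, was detected on none of the castrated arrays (4.77, 4.45 and 4.51) and on all intact arrays (8.63, 7.91 and 8.94), at least 12.2-fold lower after castration (adjusted p = 3.91e-06). Etv4, an Ets factor of budding epithelium, changed by -1.01 (adjusted p = 0.00781) with 2 of the 3 castrated arrays detected, and Id3, an inhibitor of helix-loop-helix factors, by -0.82 (adjusted p = 0.00422).

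Other factors were called higher. Irf1, a factor of interferon signalling, read 11.72, 11.47 and 11.46 after castration and 10.75, 10.52 and 10.62 in intact males (0.92, SE 0.12, adjusted p = 0.00032). Of 8 NF-kB factors and inhibitors 4 were called higher and 0 lower, led by Nfkbiz, a nuclear regulator of NF-kB, at 8.32, 8.08 and 8.24 against 7.44, 7.04 and 7.33 (0.94, SE 0.13, adjusted p = 0.000601); leaving out 1 array gave 2 to 4. Tcf21, a factor of stromal cells, changed by 1.14 (adjusted p = 0.00137). Klf6 of the Kruppel-like family (1.14, adjusted p = 0.00176), Sox4 (1.22, adjusted p = 0.000427) and Zeb2, a repressor of epithelial genes (0.99, adjusted p = 0.0014), were called higher here and had changes of -0.50, -1.35 and -0.01 against the estradiol-experiment intact arrays. There Nfkbiz changed by 0.38 and Tcf21 by 0.56. Elf5, an Ets factor of secretory mammary epithelium, read 11.35, 11.41 and 11.14 against 8.31, 8.91 and 9.41 (2.42, SE 0.62, adjusted p = 0.0171). It read 7.44, 10.79 and 8.53 on the castrated genistein arrays and was not called without castrated array 1 (2.40), castrated array 2 (2.37) or intact array 1 (2.14). Transcripts of Myc (0.05, adjusted p = 0.886), Srebf1 (-0.05, adjusted p = 0.899), Esr1 (-0.11, adjusted p = 0.8) and Hif1a (-0.15, adjusted p = 0.62) had overlapping groups and were not called.

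Hox genes, which give cells their position along the body axis, were called higher in the clusters Hoxb and Hoxd. Of 29 tested Hox genes 9 were called higher and 1 lower; the 9 were Hoxb2, Hoxb4, Hoxb5, Hoxb6 and Hoxb7 and Hoxd3, Hoxd4, Hoxd8 and Hoxd9, and 0 of the Hoxa and Hoxc genes were called. Hoxb4 read 8.19, 8.37 and 8.08 after castration and 6.15, 5.86 and 5.78 in intact males, 4.88-fold higher (2.29, SE 0.23, adjusted p = 6.86e-05). Hoxb7 read 11.13, 11.46 and 11.02 against 8.87, 9.67 and 9.60 (1.82, SE 0.34, adjusted p = 0.0033), and Hoxd4 10.31, 10.22 and 10.29 against 7.86, 8.81 and 8.73 (1.80, SE 0.32, adjusted p = 0.00228). In all 3 the groups were apart by more than 1 log2 unit. Hoxb5 changed by 1.60 (adjusted p = 0.00106), Hoxd8 by 1.22 (adjusted p = 0.00335) and Hoxd9 by 1.17 (adjusted p = 0.0111). Hoxb13, known for its high level in the ventral prostate, went the other way. It was detected on none of the castrated arrays (4.47, 4.58 and 4.48) and on all intact arrays (5.64, 5.30 and 5.11), at least 1.38-fold lower after castration (adjusted p = 0.00928).

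The Hox result rests in part on which arrays are used, and the SEs also hold the spread of the genistein-treated arrays. Among these, the castrated genistein arrays read 5.93, 7.20 and 6.66 for Hoxb2. Hoxb2 (1.22, adjusted p = 0.0252) and Hoxd3 (1.69, adjusted p = 0.045) were not called when any 1 of the 6 arrays was left out, with changes of 1.14 to 1.27 and 1.39 to 1.85, and Hoxb6 (1.61, adjusted p = 0.0169) was not called without castrated array 2 (1.52) or intact array 1 (1.44). Leaving out 1 array gave 6 to 7 Hox genes called higher. Against the estradiol-experiment intact arrays 3720 of all 15406 genes were called higher and 2650 lower. There 4 of the 9 Hox genes were called higher, Hoxd4 with 2.01, Hoxb7 with 1.16, Hoxb5 with 0.71 and Hoxb4 with 0.70. Hoxd13 (0.52), which was not called above, was called higher too. Hoxb2 (0.11), Hoxb6 (0.22), Hoxd3 (0.81) and Hoxd8 (0.37) were not called there and Hoxd9 (-0.23) had the opposite sign. On castrated genistein arrays 1 and 3, 5 of the 9 genes lay at least 1 log2 unit under the lowest castrated vehicle array, and 0 on array 2. Hoxd4 read 8.83, 10.11 and 9.14 on those arrays. Which cells carried these transcripts was not tested.

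**Figure D5:**
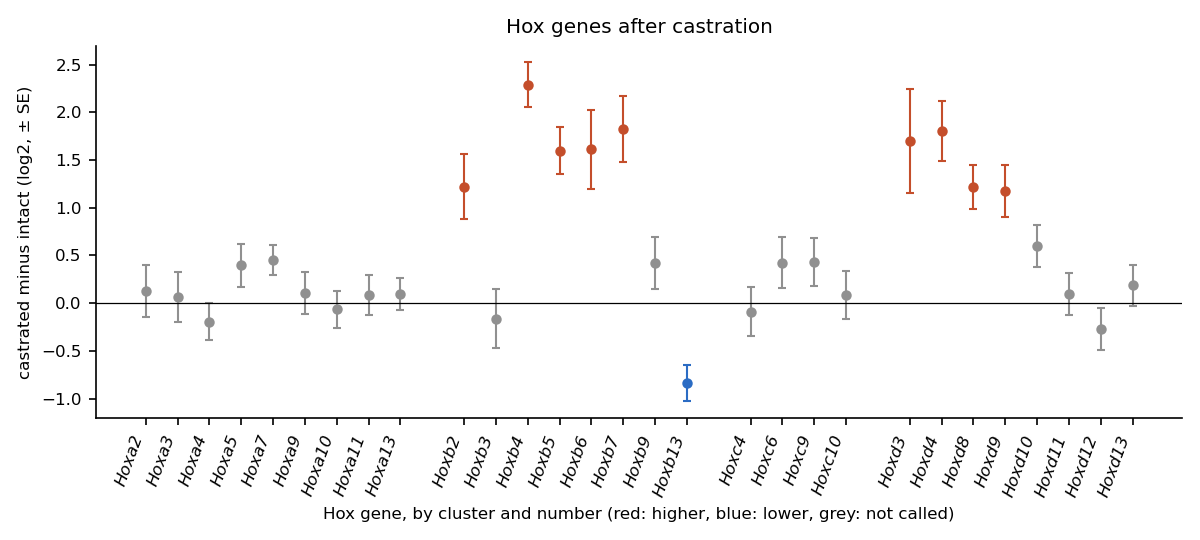
Change after castration (castrated minus intact, log2, ± SE of the limma model) of the 29 tested Hox genes, ordered by cluster and number; red genes were called higher, blue lower and grey not called. The 9 red genes are in the Hoxb and Hoxd clusters and Hoxb13 is blue at -0.84.

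Probes at the top of the scale were seldom called. The highest normalized value was 15.34 on every array, which quantile normalization sets. Before it, the highest deposited intensity of an array ran from 39017 to 45882. Whether the top of the scale limits the calls was not tested. Of the 20 brightest probes, with mean levels of 15.02 or more, 1 was called (5%), of the brightest 100 there were 6 called higher and 4 lower (10%), of the brightest 500 there were 43 and 43 (17.2%) and of the brightest 1000 there were 112 and 114 (22.6%), beside 21.2% of all genes. The files hold no flag for saturated beads, so these counts do not show that the RNA of the brightest genes was unchanged. Rplp1, a ribosomal stalk protein, read 15.19, 15.27 and 15.17 after castration and 15.24, 15.31 and 15.29 in intact males (-0.07, adjusted p = 0.643), and Eef1a1, an elongation factor, changed by 0.00 (adjusted p = 0.996). The 1 called was Fth1, ferritin heavy chain (0.40, adjusted p = 0.0287), which lost its call without any of the 3 castrated arrays (0.39 to 0.41), without intact array 2 (0.39) or 3 (0.37), with 75th percentile scaling (0.23), with the mean of its probes (0.26), and against the estradiol-experiment intact arrays (0.15), where Zfp36l1 changed by 0.66. Quantile normalization gives all arrays the same set of values, so the share of background-subtracted signal held by the 100 brightest genes was taken before that step. It was 19.1, 19.1 and 18.0% on the castrated arrays and 18.5, 19.4 and 19.5% on the intact arrays, a mean of 18.7% ± 0.68 (SD, n = 3) against 19.1% ± 0.55 (SD, n = 3), and no difference was detected by a two-sided exact permutation test (p = 0.5, where 0.1 is the smallest this design can give).

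Changes of the 500 brightest genes ran from -3.89, for a probe with no symbol, to 2.27 for Cd52, a surface protein of leukocytes and the male tract, which was not called. Among those called that have a symbol, the largest fall was that of Msmb. Msmb, a small secreted protein of prostate and mucosa, read 12.29, 11.69 and 12.40 after castration and 15.06, 15.13 and 15.10 in intact males (-2.97, SE 0.25, adjusted p = 1.6e-05). Gpx3, the secreted glutathione peroxidase, read 11.46, 11.64 and 11.48 against 13.85, 13.47 and 13.43 (-2.06, SE 0.19, adjusted p = 3.64e-05), and Defb1, a defensin, 11.25, 11.40 and 11.63 against 13.80, 13.31 and 13.59 (-2.14, SE 0.16, adjusted p = 7.91e-06). Tgm4, the transglutaminase of the copulatory plug, read 12.55, 13.82 and 13.20 against 15.34, 15.27 and 15.31 (adjusted p = 0.000137), with its intact arrays at or next to the highest normalized value, so that no exact size is given. The defensin Defb50 changed by -1.65 (adjusted p = 0.000262). Ces1d, described above, rose among the bright genes, as did Mgp, a matrix protein that binds calcium, at 13.86, 13.77 and 13.70 against 12.32, 12.75 and 12.79 (1.16, SE 0.19, adjusted p = 0.00164), and Zfp36l1, which destabilizes mRNA, at 13.98, 13.85 and 13.92 against 12.82, 12.87 and 12.89 (1.05, SE 0.14, adjusted p = 0.000422). Ucp1, the uncoupling protein of brown fat, was also among them, at 12.97, 13.01 and 13.65 against 11.04, 12.76 and 11.88 (1.32, adjusted p = 0.029). It was not called without intact array 1 (0.89), intact array 3 (1.31) or any of the castrated arrays (1.10 to 1.44). Of 9 tested adipocyte markers 0 were called by limma, while 8 had a change above 0 and their median was 0.36. The summed signals of the list overlapped, at 18018 to 23207 after castration and 11792 to 20016 in intact males. The part of fat tissue in the rise of Ucp1 was not tested.

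Among the further large falls, at ranks 11 to 25 by size among genes whose groups were apart, several encode proteins inside the cell. Chn2, a regulator of the GTPase Rac, read 8.996, 10.039 and 9.561 after castration and 13.797, 12.761 and 13.476 in intact males, 14.1-fold lower (-3.81, SE 0.29, adjusted p = 8.21e-06). Fkbp5, a cochaperone of steroid receptors and a known androgen-induced gene, read 7.47, 8.14 and 7.58 against 11.75, 11.08 and 11.14 (-3.59, SE 0.26, adjusted p = 6.26e-06). C2cd4a, a nuclear protein linked to inflammation and insulin secretion, read 4.67, 5.62 and 5.78 against 9.69, 9.02 and 9.01 (-3.89, SE 0.46, adjusted p = 0.000199). Each fell by more than 3 log2 units. Gsdma, a pore-forming gasdermin of skin and gut, changed by -4.25 (adjusted p = 4.81e-06), and Timp4, an inhibitor of matrix proteases, by -4.17 (adjusted p = 1.57e-05). Ibsp, a bone matrix sialoprotein, and Defb2, a defensin, were detected on none of the castrated arrays and were at least 10.0-fold (adjusted p = 0.000272) and at least 14.2-fold lower (adjusted p = 4.02e-07). Defb2 changed by -2.72 against the estradiol-experiment intact arrays.

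Of the rises at the same ranks, Igfbp3, which binds insulin-like growth factors, read 10.52, 10.96 and 10.66 after castration and 8.14, 8.62 and 8.30 in intact males (2.36, SE 0.20, adjusted p = 1.76e-05). Lum, a collagen-binding proteoglycan, read 12.62, 12.17 and 12.23 against 9.50, 9.96 and 9.90 (2.55, SE 0.23, adjusted p = 2.37e-05). Ccl8, a chemokine, read 10.42, 8.96 and 8.82 against 5.94, 6.61 and 6.81 (2.95, SE 0.63, adjusted p = 0.00652). Castrated array 1 was the highest for Ccl8. Groups without overlap were a condition for these ranks. Cxcl15, an epithelial chemokine known from lung, changed by 2.33 (adjusted p = 0.00117), Ffar4, a receptor for long-chain fatty acids, by 2.40 (adjusted p = 0.00585), Cysltr1, a leukotriene receptor, by 2.66 (adjusted p = 0.00451) and Jaml, an adhesion protein of leukocytes, by 2.31 (adjusted p = 0.000755). Of these, Cysltr1 (5.80, 8.06 and 5.48) and Jaml (5.95, 7.30 and 6.15) were low on castrated genistein arrays 1 and 3; Cysltr1 was detected on 1 and Jaml on 2 of the 3 intact arrays, so that the sizes of their rises are poorly defined.

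Secreted signals and complement were tested as lists. Of 26 tested growth factors and receptors 2 were called lower and 6 higher, 30.8% beside 21.2% of all genes. Egf, the epidermal growth factor, read 9.05, 9.59 and 9.42 after castration and 11.40, 10.62 and 11.03 in intact males (-1.67, SE 0.22, adjusted p = 0.000438), with -0.30 at its other probe, and Fgf1 8.88, 8.88 and 8.90 against 10.32, 9.95 and 10.37 (-1.32, SE 0.13, adjusted p = 4.52e-05). Kit, the stem cell factor receptor that is also carried by mast cells, was higher by 1.23 (adjusted p = 0.00324). Of the 6 called higher 2 to 5 were called when 1 array was left out. Of 15 complement components 9 were called higher and 1 lower (66.7%). Cfb, factor B, read 7.46, 7.55 and 7.29 against 5.90, 5.89 and 5.17 (1.78, SE 0.31, adjusted p = 0.00204), and C4a changed by 1.36 (adjusted p = 0.00826). C7, of the membrane attack complex, fell, at 5.86, 5.57 and 5.51 against 7.71, 8.11 and 7.85 (-2.25, SE 0.16, adjusted p = 4.36e-06), with -0.71 at its other probe. Against the estradiol-experiment intact arrays Kit (0.38) and C4a (0.72) were not called and Egf changed by -1.09.

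Markers of the cells that a prostate sample can hold were read beside these results. Of all genes 11.1% were called higher and 10.0% lower. Of 12 fibroblast markers 8 were called higher and their summed linear signal was 52628 to 62911 on the castrated arrays and 30099 to 30520 on the intact arrays. Of 8 mast cell markers 5 were called higher, among them Cma1 (1.33, adjusted p = 0.00306), Mcpt4 (1.27, adjusted p = 0.00931) and Cpa3 (1.12, adjusted p = 0.0082), with sums of 1981 to 2201 against 956 to 1085; Mcpt4 (0.59) was not called against the estradiol-experiment intact arrays. Of 11 tested endothelial markers 3 were called higher, and 1 to 5 when 1 array was left out. Their sums were 9783 to 12767 against 5308 to 8764. Of 10 tested luminal markers 2 were called higher and 3 lower, and of 12 basal markers 0 and 2. Their sums overlapped between the groups, at 22722 to 24232 against 22790 to 23245 and at 10640 to 13886 against 9598 to 13830. Without Krt8, the brightest luminal marker, the luminal sums were apart and lower after castration, at 15134 to 16162 against 16492 to 17645. Of the 10 luminal changes 6 were above 0, with a median of 0.12. The basal sums overlapped also without their brightest marker, Krt15. Of 12 smooth muscle markers 3 were called lower, with sums of 73054 to 86155 against 90569 to 105320. Tissue from outside the gland was read on all arrays: the sums were 57778 to 102035 against 81978 to 110188 for 6 seminal vesicle genes, and 115871 to 132070 against 99944 to 186947 for 11 skeletal muscle genes. Of these 2 lists 0 and 1 genes were called lower. Within the intact group the seminal vesicle gene Svs1 read 12.60, 4.60 and 10.16, so that its change of -4.44 (adjusted p = 0.0638) was not called. The summed signal of the 10 macrophage markers was 10129 to 11524 against 4554 to 5457. Of the 6 lymphocyte markers 5 were called higher; the other, Cd52, was not called (2.27, adjusted p = 0.0791; called in a fit to the 6 arrays alone) and held 96.9 to 98.8% of that list's summed signal on each array, and without it the sums were 383 to 484 against 187 to 200.2. Leaving out 1 array gave 6 to 8 macrophage, 4 to 5 lymphocyte and 4 to 7 fibroblast markers called higher. The fibroblast, endothelial, macrophage, mast cell and lymphocyte sums were apart between the groups and higher after castration, the lymphocyte sums also without Cd52. The smooth muscle sums were apart and lower. The luminal sums were so only without Krt8 and overlapped with it. The rises of Tcf21, Irf1, the chemokines, the leukocyte genes and complement went in the direction of the higher sums. The part of these cell types in those results was not tested.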

How the data were processed

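Total RNA from 6 prostate samples was read as biotin-labelled cRNA on Illumina mouse bead arrays. In the deposited table each of 45259 probes has an average intensity per array on a linear scale, without background subtraction or normalization, and a detection p-value, per the file headers. The submitters' processing notes name BeadStudio, with no version, and say nothing more of how the authors obtained the detection p-values. A second deposited table of processed intensity values served as an alternative. Columns holding samples of unknown origin numbered 0.

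In R 4.3.3 with limma 3.58.1, neqc estimated background from the detection p-values, applied normexp (offset 16), quantile-normalized the 12 arrays of the genistein experiment and took log2. Labels were read with jsonlite 2.0.0. A probe was kept where 3 or more arrays detected it (p-value under 0.05); a gene was its brightest kept probe. Symbols came from the platform annotation, in which 34872 probes have 1 symbol, 18 several and 10369 none. One fit (lmFit, eBayes) held 4 group means and 8 residual degrees of freedom, two-sided, with Benjamini-Hochberg adjustment over 15406 genes. The fit was tested on simulated data. Precision is limited by the number of arrays. A fold against a group with 0 arrays detected is a bound.

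The members, lists and motifs were chosen with earlier results of these data known. Named genes are those with the largest changes that passed the test in each list, ranks 11 to 25 among all genes with groups apart, the brightest 20 and the largest changes among the 500 brightest, plus a set of regulators named whatever their values; of these, members with small or unstable changes were left to the counts. Promoter windows are RefSeq's (GRCm38.p6); 27025 symbols have a window, and a gene counts as holding a motif if any of its windows does. Replicate numbers did not pair the samples, since deviations of same-numbered arrays from their group means correlated at -0.08, -0.17 and 0.04. Alternatives covered scaling, background, filters, probe choice, the fit, other intact arrays and single arrays left out; for the intact arrays of the estradiol experiment all 21 arrays were normalized together. One promoter sequence is not reported here.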

Additional observations from a re-analysis of the deposited data

How the results depend on the processing

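The 3259 calls (1713 higher, 1546 lower) became 2037 to 2898 with 1 array left out, 998 to 1477 of them higher and 1039 to 1421 lower; the lowest total came without castrated array 1, which gave 998 higher. With the replicate block 1913 genes were called, 988 higher and 925 lower; the numbers do not pair the samples. Against the 5 intact vehicle arrays of the estradiol experiment 6370 were called, 3720 higher and 2650 lower, and of the genes named above the sign turned for Alg12 (0.34), Sec24d (0.030), Hoxd9 (-0.23), Klf6 (-0.50), Sox4 (-1.35), Zeb2 (-0.0068) and, of those not called, Pan2 (0.63), Atf4 (0.35) and Rplp1 (0.048). The other alternatives gave 2832 to 4281 calls, the highest being every probe on its own. Of 152 named genes 137 were called, and 106 of them kept direction and call under every alternative run; the cause of the other changes was not tested. The signal share of the 100 brightest genes, lower by 0.36 percentage points after castration, was higher by 0.90 when genes were ranked in castrated arrays (p = 0.3, exact permutation test) and fell by 1.76 when ranked in intact arrays (p = 0.1), as the ranking itself favours the group ranked on. Genes near background on all arrays have poorly defined changes.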

Other observations

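Of 27 tested lysosomal hydrolases 7 were called higher and 3 lower, 37.0% beside 21.2% of all genes. Lgmn, the asparaginyl protease legumain, read 11.413, 11.002 and 10.973 after castration and 9.927, 10.391 and 10.041 in intact males (1.01, SE 0.21, adjusted p = 0.00516), and changed by 0.52 against the estradiol-experiment intact arrays. Ctse, an aspartic protease of mucosal epithelium, read 10.78, 10.77 and 10.77 against 12.67, 12.37 and 12.62 (-1.78, SE 0.14, adjusted p = 1.14e-05), and the mean of its probes (-0.35) was not called. Of 33 proteasome subunits 3 were called higher and 1 lower (12.1%), under the share of all genes. The highest was Psmb8 of the immunoproteasome, which cuts peptides for antigen presentation (0.87, adjusted p = 0.0038).

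Of 30 tested tight junction and adhesion genes 3 were called higher and 2 lower, 16.7% beside 21.2% of all genes. Cldn10, a claudin that forms ion pores, read 11.37, 11.78 and 11.99 against 12.78, 13.25 and 13.58 (-1.49, SE 0.27, adjusted p = 0.00271), and changed by -0.85 against the same estradiol-experiment arrays. Igfbp2, listed as a basal marker and a binding protein of insulin-like growth factors, fell by 2.24 (adjusted p = 7.08e-05) while Igfbp3 rose.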
